A study of Mus musculus with 8 samples.

Results

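Cells of the mouse melanoma line 5555-mEGFP were grown with or without melanoma-associated fibroblasts in the presence of PLX4720, an inhibitor of mutant BRAF, and their RNA was compared. The comparison rests on 4 of the 8 arrays of the series, 2 of co-culture and 2 of mono-culture, taken from the titles of the samples, and it covers all 7357 genes that could be measured. In the co-culture group, 5555-mEGFP cells were grown in direct contact with MAF2-mCherry fibroblasts, treated with PLX4720 for 24 h and then separated as the mEGFP-positive fraction by FACS. In the mono-culture group, the same line was treated alone with PLX4720. The labels give the dose as 1 mM, and the text of the study gives none for these arrays, so the unit may or may not be a slip for micromolar. The other 4 arrays are the same pair of cultures in 0.1% DMSO for 24 h, again with 2 arrays each, and they served here to estimate the spread and as levels without the drug. All groups are of 1 melanoma line, the co-cultures used 1 fibroblast line, and the sources do not say if the mono-cultures were sorted too.

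Mutant BRAF drives the kinases MEK and ERK, and ERK in turn switches on a set of immediate-early genes, feedback inhibitors and cell cycle genes. The RNA of many, though not all, of these genes falls when BRAF is inhibited. Fibroblasts in melanoma secrete growth factors, cytokines and matrix that can signal to the tumour cells through other receptors, and they are known for helping melanoma cells to tolerate BRAF inhibitors. Signals from such receptors reach the nucleus through ERK and AP-1, through JAK and STAT, through SMAD proteins and through Notch, each with its own target genes.

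RNA was measured on Illumina mouse BeadChip arrays, which read each gene as the brightness of beads that carry a probe. Levels are given as log2 of the intensity after background correction and quantile normalization, and a difference of 1 on this scale is a 2-fold change. Each array detected 37.96% to 39% of its 25697 probes, at a median of 3.26 to 3.89 times the background. Across genes, the replicates under PLX4720 correlated with r of 0.9902 (co-culture) and 0.992 (mono-culture), and the median gene differed between replicates by 0.184 (co-culture) and 0.145 (mono-culture), against 0.107 and 0.157 in the co-culture and mono-culture groups in DMSO. Precision is limited by the small number of arrays. The sources do not call the replicates separate cultures, so each p reflects only how these arrays vary, which may be technical. Of 15 melanocyte lineage markers with a probe, 14 were detected on no array, among them Mitf, Tyr, Dct and Pmel, so these markers do not identify the line. Gpnmb was detected on all 8 arrays and was lower in co-culture under PLX4720 (log2 difference -0.79, adjusted p = 0.0346 from limma). With median scaling its adjusted p was 0.071.

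In the presence of PLX4720, 286 genes were higher and 255 lower in co-culture than in mono-culture at an adjusted p under 0.05 from limma, which is 3.89% and 3.47% of the genes tested and is called passing below. The median log2 difference over all genes was 0.0085. Among the genes that passed, 216 of the higher and 211 of the lower genes differed by at least 1.5-fold, and 44 and 40 by at least 2-fold. RNA was pooled over many cells, so more cells that express a gene and more of its RNA per cell cannot be told apart. The groups did not overlap for 27.5% of all genes with co-culture higher and for 26.8% with co-culture lower, so such a separation alone is common here. With median scaling in place of quantile normalization, 339 genes were higher and 112 lower, a share of 75.2% higher among the genes that passed, against 52.9% with quantile normalization.

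The counts depended on single arrays. Co-culture replicate 1 lay farther from the mono-culture mean than replicate 2 for 374 of the 541 genes that passed, and over all genes its median distance was 0.247 on the log2 scale, against 0.192 for replicate 2. When co-culture replicate 1 was left out, the counts fell to 12 higher and 3 lower genes. Omitting co-culture replicate 2 gave 284 and 341. Leaving out mono-culture replicate 1 left 163 higher and 100 lower genes, and leaving out mono-culture replicate 2 left 54 and 47. An array left alone in its group was assumed to vary like the other groups. The arrays in DMSO also bore on the counts through the estimate of the spread: omitting co-culture DMSO replicate 1 gave 100 higher and 98 lower genes, and omitting replicate 2 gave 100 and 101. When only the 4 PLX4720 arrays were fitted, 95 genes were higher and 95 lower.

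**Figure D1:**
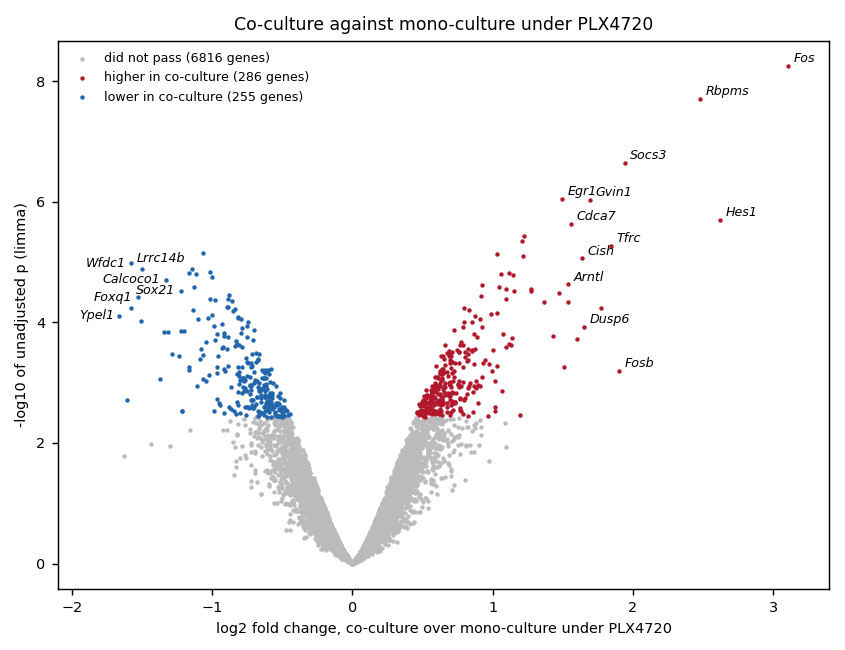
Each of 7357 genes is a point, placed by its log2 fold change in co-culture over mono-culture under PLX4720 (horizontal axis) and by -log10 of its unadjusted p from limma (vertical axis). Red points are the 286 genes that were higher and blue points the 255 that were lower at an adjusted p under 0.05, and Fos stands farthest to the right at 3.11.

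A set of 13 genes passed with all arrays and also without each of the 4 PLX4720 arrays in turn, and 11 of them were higher in co-culture. These were Fos, Hes1, Rbpms, Socs3, Gvin1, Cish, Cdca7, Egr1, Nanos1, Ccne2 and Pole4, with log2 differences from 3.11 for Fos to 1.03 for Pole4, a subunit of a replicative DNA polymerase. The lower genes were Rasl11b, a small GTPase of the RAS superfamily, and Itgb7, the integrin beta 7 chain, with log2 differences of -1.07 and -1.11. Rasl11b was detected in mono-culture only, and its bound was at least 1.53-fold lower. The highest adjusted p that these genes reached with an array left out was 0.0472. Rbpms, Nanos1 and Ccne2 were not detected in mono-culture, so only lower bounds of 3.46-fold, 1.3-fold and 1.2-fold can be given for them. Nanos1 and Pole4 were named after their values had been seen. Each other gene described below lost its call without at least 1 of the 4 arrays.

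Fos, which encodes a subunit of the transcription factor AP-1, had the largest rise. Its log2 level was 7.05 on each mono-culture array and 10.36 and 9.95 on the co-culture arrays. The co-culture arrays thus lay 2.9 or more above both mono-culture arrays, and the log2 fold change was 3.11 ± 0.16 (standard error from the fit, as for each ± below, 8.62-fold, adjusted p = 4.09e-05). In DMSO, Fos was detected in neither culture, so its level in mono-culture under PLX4720 was not below that in DMSO. Fosb, another AP-1 subunit, was at 5.77 and 5.94 in mono-culture and at 8.52 and 6.99 in co-culture. Its co-culture replicates stood far apart, with replicate 1 the higher, and the log2 fold change was 1.90 ± 0.38 (adjusted p = 0.0248). Junb was at 8.69 and 8.56 in mono-culture and at 9.98 and 9.42 in co-culture, a log2 fold change of 1.07 ± 0.18 (adjusted p = 0.0132). Fosl1, the FRA-1 gene and a known ERK target, was not detected in mono-culture and was detected on both co-culture arrays, which makes it at least 2.01-fold higher (adjusted p = 0.00662). Here and below, such a bound sets the mean of the detected group against the lowest signal detected on each array of the other group. Jun had a log2 difference of 0.59 (adjusted p = 0.0893) and Jund of 0.03 (adjusted p = 0.961). In all, 4 of 6 AP-1 genes measured were higher and none lower, with a median of 1.17, or 1.04 with the bound of Fosl1. Over all genes tested, 3.89% were higher and 3.47% lower, and each count of list members below is to be read beside these shares.

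Of these 4 genes, only Fos passed without co-culture replicate 1. Fosb then had an adjusted p of 0.0541, Fosl1 of 0.0602 and Junb of 0.0628. Fosb also failed without mono-culture replicate 1 (adjusted p = 0.0827) and replicate 2 (0.091), and Junb without mono-culture replicate 2 (0.0744). If the mono-cultures were not sorted, an effect of sorting and one of co-culture cannot be told apart in these genes, as in all others.

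**Figure D2:**
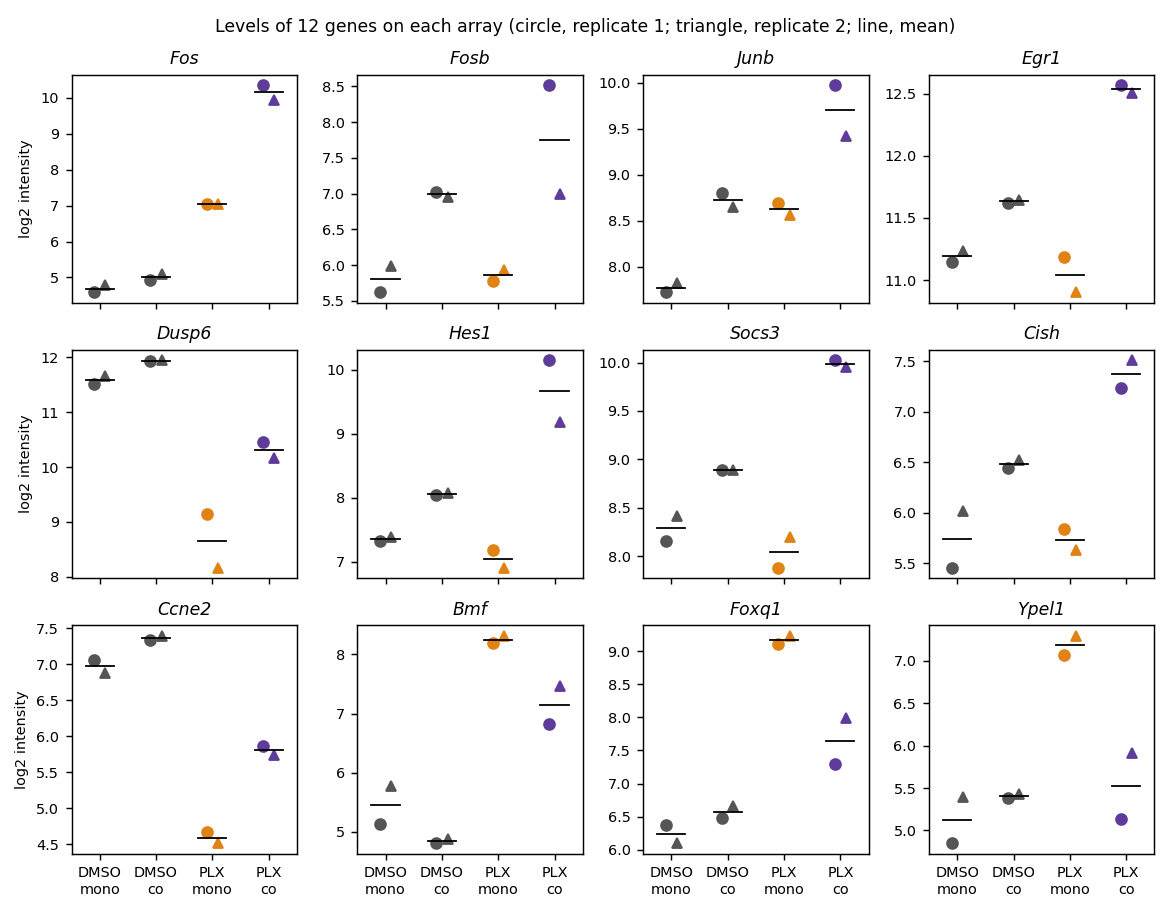
Log2 intensity (vertical axes, scaled per gene) of 12 genes on each of the 8 arrays, by treatment and culture (horizontal axis), with circles for replicate 1, triangles for replicate 2 and a line at the mean of the 2 arrays. Fos is at 10.36 and 9.95 in co-culture under PLX4720 and at 7.05 in mono-culture, while Ccne2, Fosb, Hes1, Socs3 and Cish are also higher and Bmf, Foxq1 and Ypel1 lower in co-culture under PLX4720.

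Among the other immediate-early genes, which are transcribed within minutes of a growth signal, 6 of 17 were higher. Egr1, a zinc finger transcription factor induced by ERK, was at 11.19 and 10.90 in mono-culture and at 12.57 and 12.51 in co-culture, where the replicates lay close to each other (log2 fold change 1.49 ± 0.13, adjusted p = 0.00137). Its relative Egr2 was detected in co-culture only and was at least 1.9-fold higher (adjusted p = 0.00662). Zfp36, whose product degrades cytokine mRNA, rose 2.13-fold from 9.32 and 8.96 to 10.31 and 10.16 (adjusted p = 0.00662). The transcription factor gene Klf2 rose 2-fold, and Csrnp1 and the phosphatase gene Dusp1 rose 1.64-fold and 1.61-fold, with adjusted p from 0.0248 to 0.0408. None of the 17 was lower, and their median was 0.55. This count was 1, Egr1, without co-culture replicate 1, 9 without replicate 1 of mono-culture, 3 without mono-culture replicate 2 and 6 without co-culture replicate 2.

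Among 14 genes known as readouts of ERK, 6 were higher and 1 was lower in co-culture, with a median of 0.59, or 0.51 with 3 genes at their bounds. Dusp6, the phosphatase that shuts ERK off in a feedback loop, was at 9.15 and 8.16 in mono-culture and at 10.46 and 10.16 in co-culture. The co-culture arrays were both higher, although the mono-culture replicates lay far apart, and the log2 fold change was 1.65 ± 0.26 (adjusted p = 0.0118). In DMSO, Dusp6 was at 11.51 and 11.66 in mono-culture and at 11.94 and 11.95 in co-culture, so that its level in co-culture under PLX4720 stayed below all 4 arrays in DMSO. A second probe for Dusp6, detected in co-culture only, showed 1.48, and another that was detected in neither culture showed 0.06. Phlda1 rose 2.29-fold (adjusted p = 0.0487), the cyclin D1 gene Ccnd1 rose 1.55-fold (adjusted p = 0.0304) and the feedback inhibitor gene Spry4 was detected in co-culture only, at least 1.26-fold higher (adjusted p = 0.0423). Egr1 and Fosl1 complete the 6. Dusp4, a further phosphatase of this feedback, went the other way, from 7.40 and 7.60 in mono-culture to 6.70 and 6.81 in co-culture (log2 fold change -0.75 ± 0.14, adjusted p = 0.0222).

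The ERK targets Etv4 and Etv1, of the ETS family, had log2 differences of 0.68 and 0.48 that did not pass (adjusted p = 0.0646 and 0.0864). Etv4 was detected on 1 co-culture array and Etv1 on none, and neither was detected in mono-culture under PLX4720, while both were detected on all 4 arrays in DMSO. The only ERK readout that passed without co-culture replicate 1 was Egr1, with Dusp6 at an adjusted p of 0.0989 and Ccnd1 of 0.134. Dusp4 failed without co-culture replicate 1 (0.112) and mono-culture replicate 2 (0.113), and with median scaling (0.0533).

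Of 21 measured genes on a list taken from the text and figures of the study, 6 were higher and none lower, namely Fos, Fosb, Junb, Hbegf, Bhlhe40 and Rhob. The study chose some of these genes from experiments that include the DMSO arrays, so their direction is not independent evidence. Hbegf, a ligand of the EGF receptor, was at 7.02 and 6.74 in mono-culture and at 7.70 and 7.59 in co-culture (log2 fold change 0.76 ± 0.14, adjusted p = 0.0186). Its levels in DMSO were 9.49 and 9.40 in mono-culture and 10.63 and 10.48 in co-culture, well above those under PLX4720 in either culture. Errfi1, a feedback inhibitor of the receptor, followed the same order, with 9.43 and 9.13 in mono-culture, 9.97 and 10.00 in co-culture (log2 fold change 0.70, adjusted p = 0.0216) and 12.10 to 12.97 in DMSO. The EGFR ligand gene Btc was detected in neither culture under PLX4720. Bhlhe40, a transcriptional repressor of the clock and hypoxia response, and the small GTPase gene Rhob were 1.76-fold and 1.66-fold higher (adjusted p = 0.0217 and 0.0399). Of the rest, Vegfa had a log2 difference of 0.64 (adjusted p = 0.0634), Ier3 of 0.55 (0.0883), Plaur of 0.34 (0.416), Inhba of 0.18 (0.544), Pmepa1 of 0.18 (0.459) and Sphk1 of 0.16 (0.616). Of this list, Fos alone passed without co-culture replicate 1 or without mono-culture replicate 2, and Hbegf had adjusted p of 0.102 and 0.0964.

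The SOCS family, whose members are induced by STAT factors and then block cytokine receptors, held 2 of the 13 genes that passed without each array. Socs3, the main inhibitor of signalling by the IL-6 receptor family, was at 7.88 and 8.20 in mono-culture and at 10.02 and 9.95 in co-culture. Its co-culture replicates nearly coincided, and the log2 fold change was 1.94 ± 0.15 (3.85-fold, adjusted p = 0.00055). Cish, the founding member of the family and a target of STAT5, was at 5.83 and 5.63 in mono-culture and at 7.23 and 7.51 in co-culture (log2 fold change 1.64 ± 0.19, adjusted p = 0.00456). Socs2, which restrains growth hormone signalling, was at 8.18 and 7.36 in mono-culture and at 9.01 and 9.39 in co-culture (log2 fold change 1.43 ± 0.24, adjusted p = 0.014). Stat3 itself rose 1.57-fold (adjusted p = 0.0196). The other members of the list of 12, among them Socs1 at 0.03, Pim1 at 0.16 and the shared receptor chain gene Il6st at 0.46, did not pass, and none was lower. The cytokine and receptor genes Il6, Lif, Osmr and Lifr were detected on no array. Socs3 and Cish passed without each PLX4720 array, while without co-culture replicate 1 Socs2 and Stat3 had adjusted p of 0.0628 and 0.0969. In DMSO the co-culture effects on Socs3, Cish and Socs2 were 0.60, 0.75 and 0.77 on the log2 scale and did not pass, and their differences from the effects under PLX4720 did not pass either (adjusted p = 0.0554, 0.161 and 0.356).

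Since Socs3 and Cish moved together, the promoters of both genes are shown, from 250 bases before to 50 bases after the start of the gene, on the strand of the gene, as RefSeq gives them for GRCm38.p6. The promoter of Cish lies at chr9:107296409-107296708 on the plus strand and that of Socs3 at chr11:117969317-117969616 on the minus strand. Capitals mark matches to TTCNNNGAA, the core that STAT dimers bind, which reads the same on both strands and was searched for after the values had been seen.
Cish: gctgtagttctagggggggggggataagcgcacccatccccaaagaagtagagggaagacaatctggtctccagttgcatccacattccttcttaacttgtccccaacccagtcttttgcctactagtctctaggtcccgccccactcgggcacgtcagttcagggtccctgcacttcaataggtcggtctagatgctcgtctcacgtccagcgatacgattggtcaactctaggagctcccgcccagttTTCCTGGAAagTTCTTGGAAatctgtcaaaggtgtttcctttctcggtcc
Socs3: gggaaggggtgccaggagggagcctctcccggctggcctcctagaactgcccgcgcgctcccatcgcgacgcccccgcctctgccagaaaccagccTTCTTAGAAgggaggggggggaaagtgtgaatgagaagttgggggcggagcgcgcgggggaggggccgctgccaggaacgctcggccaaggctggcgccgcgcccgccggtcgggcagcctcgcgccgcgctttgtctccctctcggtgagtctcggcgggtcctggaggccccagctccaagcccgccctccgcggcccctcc
Cish held 2 matches, which do not overlap and begin at positions 1 and 12 from the gene start, and Socs3 held 1, which begins at position -154. Of 9 genes of the SOCS list with a promoter in the table, 2 held a match (22.2%), namely Cish and Socs3 themselves. The share was 8.12% of 6068 genes tested that have a promoter and 8.3% of all promoters of the table. As the motif was searched for after these 2 genes were picked, no enrichment can be read from these shares. A match to these letters is a description and not a binding site. For the AP-1 motif TGANTCA, the share was 5.63% of 231 higher genes and 12.4% of 201 lower genes, against 6.25% of all genes tested.

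Hes1, a repressor of transcription best known as a target of Notch, had the second largest rise. It was at 7.18 and 6.90 in mono-culture and at 10.14 and 9.18 in co-culture, where replicate 1 lay well above replicate 2 and both lay above all other arrays of the series. The log2 fold change was 2.62 ± 0.26 (6.15-fold, adjusted p = 0.00244). None of the other 5 Notch genes measured passed, with log2 differences from -0.31 for Dtx3 to 0.07 for Notch1, and Hey1, Hey2, Heyl, Jag1 and Dll1 were detected on no array. The inhibitors of differentiation Id1, Id2 and Id3, targets of BMP signalling through SMAD proteins, rose as well. Id3 was at 8.0 and 7.87 in mono-culture and at 9.11 and 9.05 in co-culture (log2 fold change 1.15 ± 0.14, adjusted p = 0.00534), above its levels of 6.98 to 7.31 in DMSO. Id1 rose 1.98-fold and Id2 1.96-fold (adjusted p = 0.0095 and 0.0492). They were the 3 genes that passed among 19 of a TGF-beta and activin list, whose median was 0.15, and Skil at 0.23 and Smad3 at -0.61 did not pass. None of the 3 passed without co-culture replicate 1 (adjusted p = 0.0711 for Id1, 0.255 for Id2 and 0.0517 for Id3), and Id2 also failed without mono-culture replicate 2 (0.208) and without co-culture replicate 2 (0.0538).

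Tfrc, the transferrin receptor through which cells take up iron, rose from 8.40 and 7.75 to 10.04 and 9.80 (log2 fold change 1.84 ± 0.20, adjusted p = 0.00395). Ncoa4, which sends ferritin to autophagy and so frees stored iron, fell from 7.45 and 7.24 to 6.31 and 6.42 (log2 fold change -0.98 ± 0.14, adjusted p = 0.00746). These were the 2 genes that passed among 10 of iron handling, whose median was 0.03. On leaving out co-culture replicate 1, Tfrc had an adjusted p of 0.0506 and Ncoa4 of 0.0628.

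Rbpms, which encodes an RNA-binding protein, was detected in co-culture only. Its levels in co-culture were 7.22 and 7.44, at least 3.46-fold higher than in mono-culture, where it read 4.87 and 4.83 (adjusted p = 7.31e-05). In DMSO it showed the same pattern, with 7.33 and 7.46 in co-culture and no detection in mono-culture. Gvin1, an interferon-inducible GTPase, was detected on 1 of 2 mono-culture arrays and rose 3.24-fold from 5.56 and 5.33 to 7.08 and 7.19 (adjusted p = 0.00137), and its effect in DMSO was 1.28 on the log2 scale. Megf10, a receptor for the engulfment of dying cells, was at 6.34 and 5.33 in mono-culture and at 7.39 and 7.48 in co-culture (log2 fold change 1.60 ± 0.27, adjusted p = 0.0148), with an effect of 2.02 in DMSO. The 5.33 of Megf10 on mono-culture replicate 2 lay below the lowest signal detected on that array, 5.552. Its fold thus rests in part on background. Arntl, the clock gene also called Bmal1, rose 2.9-fold (adjusted p = 0.00648). Nrp1, a co-receptor for VEGF and semaphorins, was at 8.18 and 7.23 in mono-culture and at 9.56 and 8.86 in co-culture (log2 fold change 1.51 ± 0.30, adjusted p = 0.0236), and its effect in DMSO was -0.23. With co-culture replicate 1 left out, Megf10 (adjusted p = 0.0963), Arntl (0.0506) and Nrp1 (0.14) did not pass, and Nrp1 also failed without mono-culture replicate 2 (0.0916). Of the 15 largest rises, 8 passed without co-culture replicate 1, 14 without replicate 1 of mono-culture, 13 without mono-culture replicate 2 and 15 without co-culture replicate 2.

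Some genes of the G1 to S transition were higher in co-culture, 3 of 16 on a list of G1 cyclins and CDK inhibitors and 5 of 23 on a list of DNA replication genes. Ccne2, cyclin E2, was not detected in mono-culture, at 4.67 and 4.51, and was at 5.87 and 5.74 in co-culture, at least 1.2-fold higher (adjusted p = 0.00366). Ccne1 rose 1.62-fold (adjusted p = 0.0363). Cdca7, a gene of the cell cycle induced by MYC and E2F, rose 2.95-fold from 8.11 and 7.74 to 9.58 and 9.40 (adjusted p = 0.00244). In the DNA replication list, Cdc6, which loads the replicative helicase, was at 5.98 and 5.81 in mono-culture and at 7.07 and 6.91 in co-culture (log2 fold change 1.09 ± 0.15, adjusted p = 0.00746). The subunit Rrm2 of ribonucleotide reductase rose 2.07-fold (adjusted p = 0.00662), and Tk1, Tyms and Uhrf1 rose 1.77-fold, 1.7-fold and 1.71-fold (adjusted p from 0.0167 to 0.043). In all, 5 of 23 replication genes were higher and none lower, with a median of 0.36. All 5 had lower levels on every PLX4720 array than on any array in DMSO. Of 14 mitosis genes none passed, and their median was 0.0061 with a range from -0.33 to 0.32. The CDK inhibitor gene Cdkn1b read 9.99 and 8.51 in mono-culture and 7.51 and 7.73 in co-culture, a log2 difference of -1.63 that did not pass (adjusted p = 0.106), since its replicates lay far apart. None of the 5 replication genes passed without co-culture replicate 1 (adjusted p = 0.0628 for Cdc6 and 0.052 for Rrm2), while 2 passed without mono-culture replicate 1 and 4 without mono-culture replicate 2. Ccne1 failed without any of the 4 arrays (0.0661 to 0.148).

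Of the genes that build ribosomes, 5 of 19 were higher. Rrp12, needed to export and mature ribosomal subunits, was at 8.02 and 7.73 in mono-culture and at 9.16 and 9.02 in co-culture (log2 fold change 1.22 ± 0.14, adjusted p = 0.00444). Nop58, Bop1, Rrp9 and Gnl3, all nucleolar proteins, were 1.48-fold to 1.77-fold higher (adjusted p from 0.0278 to 0.0447). These 5 passed on the list of MYC and ribosome biogenesis genes, none was lower, and the median was 0.39, or 0.25 with a gene at its bound. Myc was not detected in either culture under PLX4720. Srm, spermidine synthase and a MYC target of polyamine synthesis, rose 2.9-fold (standard error 0.22 on the log2 scale, adjusted p = 0.0075). None of these passed without co-culture replicate 1, with Rrp12 at an adjusted p of 0.0506 and Srm of 0.0628, and without mono-culture replicate 2 the 1 member of the list that passed was Rrp12.

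**Figure D3:**
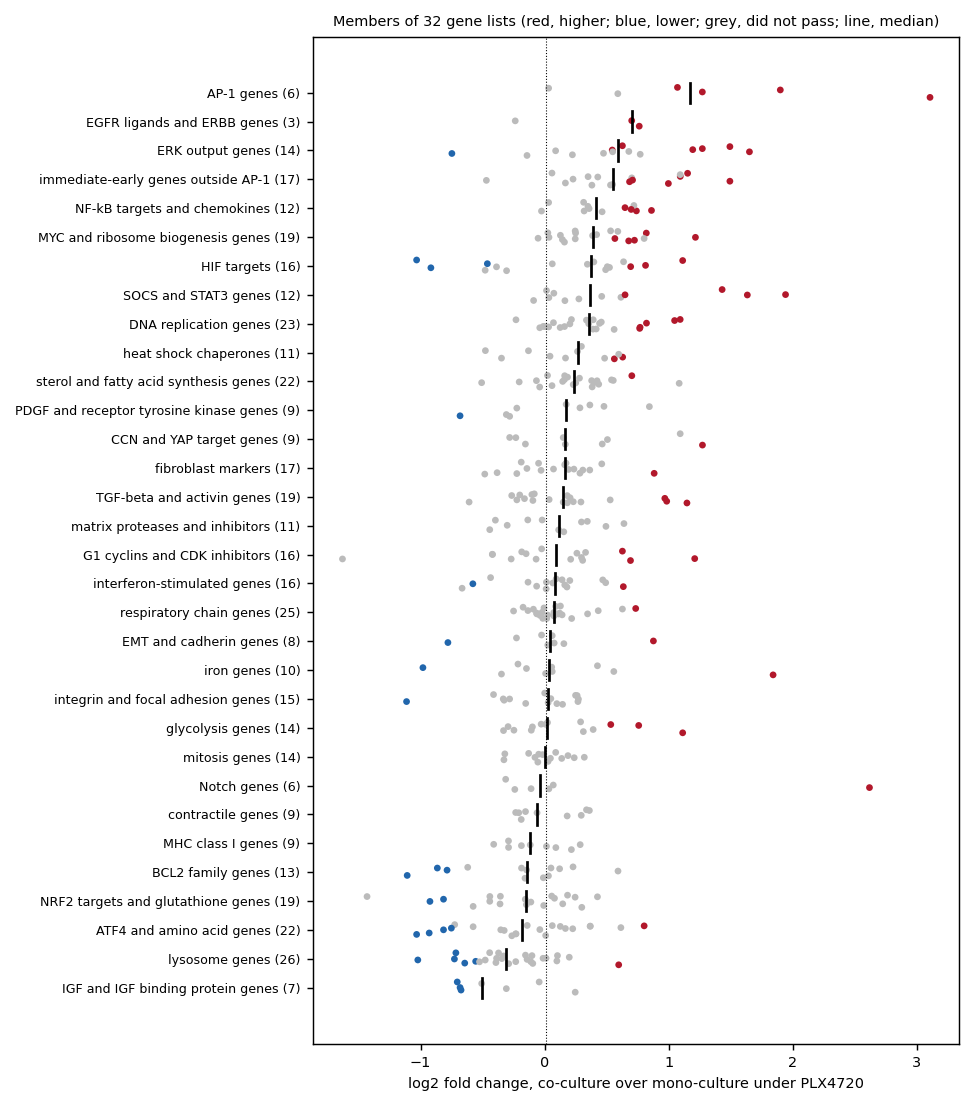
Log2 fold change in co-culture over mono-culture under PLX4720 (horizontal axis) of each measured member of 32 gene lists (rows, with the number of members in brackets), in red where higher and in blue where lower at an adjusted p under 0.05, with a black line at the median of each list and a dotted line at the median of all genes. The AP-1 genes have a median of 1.17, the lysosome genes of -0.31 and the mitosis genes of 0.0061.

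Among the genes that fell, Ypel1 changed the most. Ypel1, of a family of small zinc-binding proteins, was at 7.08 and 7.30 in mono-culture and at 5.14 and 5.91 in co-culture, 3.16-fold lower (log2 fold change -1.66 ± 0.25, adjusted p = 0.0098), and was not detected in DMSO. Foxq1, a forkhead transcription factor, was at 9.12 and 9.23 in mono-culture and at 7.30 and 7.99 in co-culture, 2.88-fold lower (standard error 0.21 on the log2 scale, adjusted p = 0.00736). In DMSO its levels were 6.10 to 6.66, so co-culture under PLX4720 stood between mono-culture under PLX4720 and DMSO. Wfdc1, a secreted protein with a protease inhibitor fold, fell from 7.23 and 7.38 to 5.49 and 5.96 and was not detected in DMSO (log2 fold change -1.58, adjusted p = 0.0051). The 5.49 of Wfdc1 lay below the lowest signal detected on co-culture replicate 1, 5.539, so its order against DMSO cannot be read. Calcoco1, a receptor of selective autophagy, fell 2.51-fold from 6.94 and 6.72 to 5.27 and 5.73 (adjusted p = 0.00578). Pdcd4, an inhibitor of translation initiation, fell 3.05-fold (adjusted p = 0.0389) and Olfml2b, an extracellular protein, 2.59-fold (adjusted p = 0.0287), with replicates that differed by 0.5 or more in some group.

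Sox21, a transcription factor of the SOX family, fell 2.33-fold from 11.31 and 11.78 to 10.30 and 10.34 (adjusted p = 0.00662). Spon2, a secreted matrix protein, fell 2.44-fold and Plin4, a coat protein of lipid droplets, 2.36-fold (adjusted p = 0.019 and 0.0195). Cox6a2, the muscle form of a cytochrome oxidase subunit, fell 2.99-fold (adjusted p = 0.00854) and Cdsn, corneodesmosin, 2.49-fold (adjusted p = 0.0132), and both also fell in DMSO. Lrrc14b was detected in mono-culture only and was at least 2.42-fold lower in co-culture (adjusted p = 0.00528). Fbxl2 fell 2.34-fold and Dipk1a 2.85-fold. Ypel1, Wfdc1, Calcoco1, Cox6a2 and Fbxl2 were detected on 1 of the 2 co-culture arrays, so their folds rest on signals close to background there. Ugt1a6a fell 2.54-fold, but the genes of the Ugt1a cluster share exons, so its probe may read several of them. None of these 15 largest falls passed without co-culture replicate 1, with adjusted p from 0.0506 to 0.197 and a smallest log2 difference of 0.888 in size. Without mono-culture replicate 2 there were 9 that passed, with Cdsn, Dipk1a, Pdcd4, Plin4, Spon2 and Ypel1 at 0.0549 to 0.0972, without mono-culture replicate 1 there were 12, and without co-culture replicate 2 there were 14.

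Some genes of cell death and of the lysosome fell. Of 13 genes of the BCL2 family, the proteins that decide on apoptosis at mitochondria, 3 were lower and none higher. Among all genes tested, 3.47% were lower. These 3 family members encode BH3-only proteins, which promote death. Bad and Bid, of the same kind, had log2 differences of 0.12 and 0.05 and did not pass. Bmf was at 8.19 and 8.31 in mono-culture and at 6.82 and 7.47 in co-culture (log2 fold change -1.11 ± 0.24, adjusted p = 0.031). Bcl2l11, the BIM gene, was at 9.03 and 9.67 in mono-culture and at 8.51 and 8.46 in co-culture (log2 fold change -0.86 ± 0.19, adjusted p = 0.0313). Both genes stood above their levels in DMSO in either culture, which were 4.81 to 5.78 for Bmf and 6.85 to 7.33 for Bcl2l11. Pmaip1, the NOXA gene, fell 1.72-fold (adjusted p = 0.0174). Bbc3, the PUMA gene, had a log2 difference of -0.62 and Bcl2, which protects cells, of 0.59, and neither passed (adjusted p = 0.141 and 0.13). Bcl2l1 and Bcl2l2, which also protect cells, had log2 differences of -0.16 and -0.14 and did not pass. The median of the family was -0.14. Without co-culture replicate 1, Bmf (adjusted p = 0.158), Bcl2l11 (0.134) and Pmaip1 (0.0767) did not pass, and without mono-culture replicate 2 only Pmaip1 did. Without mono-culture replicate 1, Bmf (0.0803) and Pmaip1 (0.0662) failed, and without co-culture replicate 2 Bcl2l11 did (0.0748).

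Of 26 lysosome genes, 5 were lower, 1 was higher, 21 had a negative difference and the median was -0.31. Ctsa, a protective protein of lysosomal enzymes, was at 9.19 and 9.07 in mono-culture and at 8.01 and 8.21 in co-culture (log2 fold change -1.02 ± 0.21, adjusted p = 0.0266). Grn, progranulin, and Psap, the precursor of the saposins, fell by 0.72 and by 0.64 on the log2 scale (adjusted p = 0.0236 and 0.0321), and Man2b1 and the membrane protein gene Lamp1 fell 1.66-fold and 1.47-fold. The protease gene Ctsc rose 1.51-fold. The median of the list was -0.154 without co-culture replicate 1, where none passed, and -0.343 without co-culture replicate 2, where 5 were lower. None passed without mono-culture replicate 1, and Psap alone did without mono-culture replicate 2. Median scaling ended the calls of Grn (0.0731), Man2b1 (0.0848) and Psap (0.125). Of 7 genes of the IGF system, 3 were lower and none higher, namely Igf2r, the clearing receptor for IGF2 (1.63-fold), Igf1r, the signalling receptor (1.6-fold), and the binding protein gene Igfbp6 (1.6-fold), with adjusted p from 0.0126 to 0.0368, and without co-culture replicate 1 or mono-culture replicate 2 none of them passed. Igf2r (0.0555) and Igfbp6 (0.0871) also failed with median scaling.

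Stress and metabolic genes were mixed. Of 22 genes of the ATF4 response and amino acid supply, 4 fell and 1 rose. Vldlr, a lipoprotein receptor, fell from 10.77 and 11.17 to 9.81 and 10.07 (log2 fold change -1.03 ± 0.16, adjusted p = 0.00983). Aldh1l2 of mitochondrial folate metabolism and Phgdh, the first enzyme of serine synthesis, fell 1.91-fold and 1.68-fold (adjusted p = 0.0111 and 0.0273), and the stress gene Nupr1 rose 1.74-fold (adjusted p = 0.0186). The cystine transporter gene Slc7a11 also passed as lower (adjusted p = 0.0412), but it was detected on 1 mono-culture array and on no co-culture array, and its bound was 1.01-fold. Of 19 NRF2 targets and glutathione genes, 2 were lower, Slc7a11 and Gstm1. The latter, a glutathione transferase, fell 1.9-fold (adjusted p = 0.0174), although a second probe showed -0.01, and with the mean of both it did not pass. The median of that list was -0.15 under PLX4720, or -0.007 with 4 genes at their bounds, and -0.82 in DMSO. Of 16 HIF targets, 3 rose and 3 fell. Hexokinase 2, Hk2, rose 2.16-fold from 8.39 and 7.72 to 9.15 and 9.19 (adjusted p = 0.0167), and with lactate dehydrogenase, Ldha (1.69-fold), and Pgam1 (1.45-fold) it made up the 3 of 14 glycolysis genes that were higher. Bhlhe40 and P4ha1 were the other HIF targets that rose, and Vldlr, Ddit4 and Ndrg1 those that fell. On leaving out co-culture replicate 1, Phgdh was the only one of these genes that passed (adjusted p = 0.0472). Without mono-culture replicate 2 these were Gstm1, Aldh1l2 and Ldha, and Gstm1 failed without mono-culture replicate 1 (0.0617).

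Of 12 NF-kB targets and chemokines, 4 were higher and none lower, with a median of 0.41. They were the chemokine gene Cxcl1 (1.82-fold), the regulator Nfkbiz (1.67-fold), the macrophage growth factor gene Csf1 (1.62-fold) and the adhesion molecule gene Vcam1 (1.57-fold), with adjusted p from 0.0346 to 0.0478, and none of them passed without co-culture replicate 1 or without mono-culture replicate 2. Nfkbiz failed without any of the 4 PLX4720 arrays. Cxcl1 was detected on at most 3 of the 8 arrays, and with no background subtraction its log2 difference was 0.28 and did not pass (adjusted p = 0.0872). Snai1, a repressor of E-cadherin, rose 1.84-fold (adjusted p = 0.0098) and Zeb2, a repressor of the same gene, fell 1.72-fold (adjusted p = 0.0281) among 8 genes of epithelial to mesenchymal transition. Nuak2, a kinase gene induced by YAP, was at 5.86 and 5.80 in mono-culture and at 7.02 and 7.19 in co-culture (log2 fold change 1.27 ± 0.17, adjusted p = 0.00662), the 1 gene of 9 CCN and YAP targets that passed. With co-culture replicate 1 left out these 3 genes had adjusted p of 0.066, 0.112 and 0.0513, and Zeb2 also failed without mono-culture replicate 2 (0.133) and co-culture replicate 2 (0.064). No gene passed among 11 matrix proteases and inhibitors, 9 contractile genes and 9 MHC class I genes. Among 16 interferon-stimulated genes 1 rose (Irgm1) and 1 fell (Ifit2), and in the lists of 22 sterol, 25 respiratory chain and 11 heat shock genes 1 (Elovl6), 1 (Cox6c) and 2 (Hsph1 and Hspd1) rose and none fell. Since 3.89% of all genes were higher and 3.47% lower, 1 call in a list of 16 to 25 genes is near the share over all genes.

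RNA from fibroblasts could be present in the sorted fraction, so 25 fibroblast markers were examined. Of 24 with a probe, 7 were detected on no array, among them the defining genes Dcn, Lum, Fap, Postn and Thy1. Of the 17 that were measured, 1 was higher and none lower, with a median of 0.16. The one was Bgn, biglycan, at 7.82 and 7.13 in mono-culture and at 8.34 and 8.39 in co-culture (adjusted p = 0.032), and it passed without mono-culture replicate 1 but failed without each of the other 3 arrays (0.0762 to 0.136). Col1a1 was at 5.63 and 5.78 in mono-culture and at 6.14 and 5.74 in co-culture, groups that overlapped (adjusted p = 0.377). Log2 differences were -0.14 for Col1a2, 0.46 for Cd248, -0.22 for Pdgfra, 0.29 for Pdgfrb and -0.19 for Acta2, and none passed. The intensities of the 17 genes added up to 21510 and 14490 in mono-culture and to 16640 and 17390 in co-culture under PLX4720, so the co-culture arrays lay within the range of the mono-culture arrays. In DMSO the sums were 4736 to 6070. Several of these markers, among them Acta2 and Pdgfrb, were detected on all 8 arrays, mono-cultures included. A small share of fibroblast RNA would therefore not show in the sums. Rbpms and the matrix gene Mfap2, which are not on the marker list, were detected in co-culture only in both treatments. Whether their RNA came from fibroblasts was not tested.

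The same pair of cultures without the drug uses other arrays but shares the normalization, the filter and the estimate of the spread. There, 46 genes were higher (0.625%) and 76 lower (1.03%) in co-culture. Of the 286 genes higher under PLX4720, 18 were also higher in DMSO, which is 6.29% of the former and 39.1% of the latter. Of the 255 lower genes, 23 were lower in DMSO as well, 9.02% of the former and 30.3% of the latter. Among the higher genes 67.5% had a positive difference in DMSO, against 51.9% of all genes, and among the lower genes 72.5% had a negative one, against 48.1%. The median difference of the higher genes was 0.69 under PLX4720 and 0.10 in DMSO, and that of the lower genes -0.72 and -0.15, and the choice of these genes under PLX4720 favours the larger size there.

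A test of the difference between the effects under PLX4720 and in DMSO found 3 genes with a higher (0.0408%) and 6 with a lower effect (0.0816%) under PLX4720. The effect on Fos differed by 2.79 (adjusted p = 0.00258), although in DMSO its signal was not above background. Ulk4, a pseudokinase, fell under PLX4720 from 7.80 and 7.82 in mono-culture to 6.69 and 6.65 in co-culture and rose in DMSO from 6.90 and 6.71 to 8.05 and 7.76, so that within each treatment the groups did not overlap (difference of effects -2.25, adjusted p = 0.00285). Rasl11b was detected under PLX4720 in mono-culture only, at 6.23 and 6.15 (difference of effects -1.59, adjusted p = 0.0113). Aqp1, a water channel, rose under PLX4720 from 10.04 and 9.97 to 10.77 and 10.83 and stood in DMSO at 10.64 and 10.68 in mono-culture and 10.15 and 10.20 in co-culture (difference 1.28, adjusted p = 0.0287). Dipk1a was at 8.52 and 8.58 in mono-culture and 6.76 and 7.32 in co-culture under PLX4720, and at 7.23 and 7.92 against 8.64 and 8.46 in DMSO (difference -2.48, adjusted p = 0.0287). H3c7, a histone H3 gene whose near-identical copies may share its probe, rose 1.78-fold under PLX4720 and fell in DMSO (difference 1.76, adjusted p = 0.0478). The other 3 genes that passed this test were not detected in either culture under PLX4720. Fos and Ulk4 passed without each of the 8 arrays, with adjusted p up to 0.0202 and 0.0425. Without co-culture PLX4720 replicate 1, Rasl11b (0.0566), Aqp1 (0.119), Dipk1a (0.148) and H3c7 (0.168) did not, nor did they without either co-culture DMSO array.

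**Figure D4:**
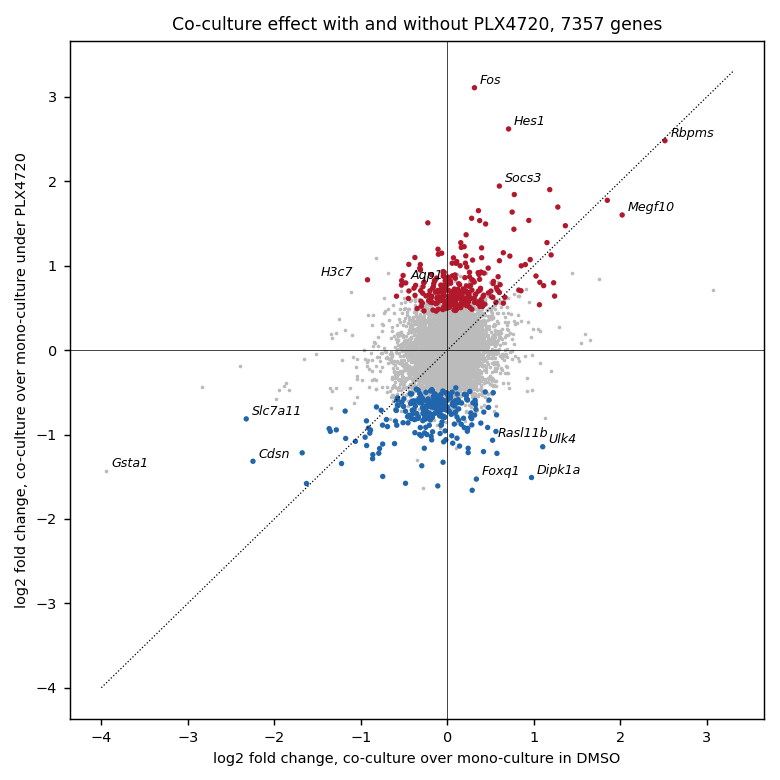
Each of 7357 genes is placed by its log2 fold change in co-culture over mono-culture in DMSO (horizontal axis) and under PLX4720 (vertical axis), with genes that passed under PLX4720 in red where higher and blue where lower, and a dotted line where both effects are equal. Fos, which was not detected in DMSO, lies far above the line, with 0.31 and 3.11, and Rbpms, which was not detected in mono-culture in either treatment, has fitted values of 2.52 and 2.48, while Ulk4 rose in DMSO and fell under PLX4720.

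Over all genes, which are not independent replicates, co-culture arrays under PLX4720 correlated with the DMSO arrays with r from 0.9557 to 0.9642, and mono-culture arrays with r from 0.9456 to 0.9549.

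**Figure D5:**
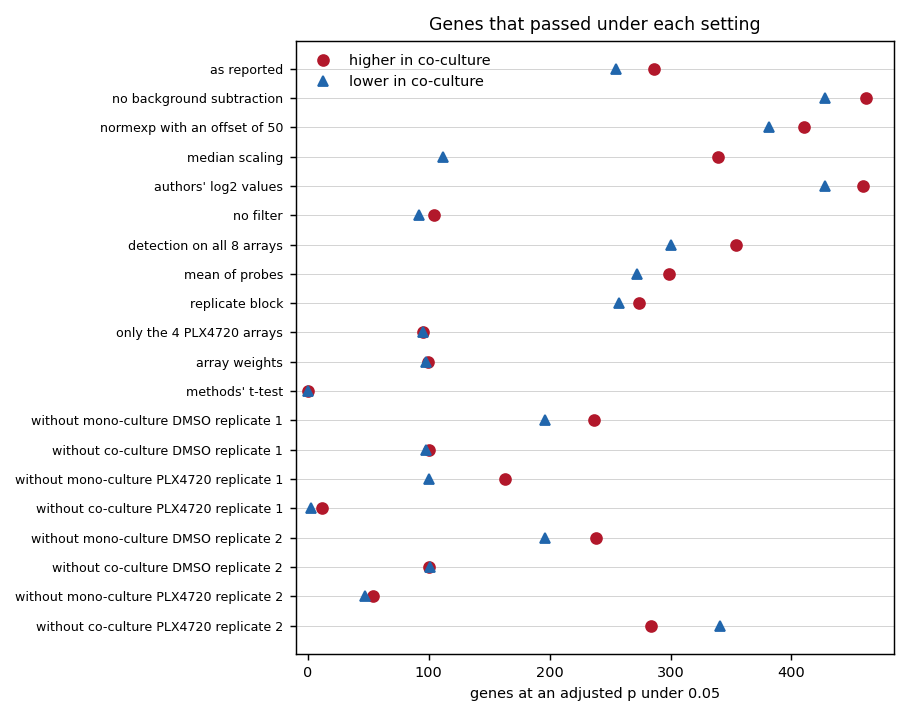
Number of genes at an adjusted p under 0.05 (horizontal axis) that were higher (circles) or lower (triangles) in co-culture under PLX4720, with each processing setting or left-out array (rows). The counts are 286 and 255 as reported and 0 with a t-test per gene. For such profiles, the methods of the study name a t-test only to rank genes for gene set enrichment.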

How the data were processed

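The authors deposited linear bead intensities that had not been normalized, each with the detection p-value of its probe, per the file headers. A further table that the authors deposited holds log2 values, which equalled quantile-normalized intensities without background subtraction (largest difference 0.0047). The submitters' processing notes name lumi, with no version. From the intensities, levels were computed by neqc of limma 3.58.1 in R 4.3.3, which corrects background by negative controls (here inferred from the detection p), adds an offset of 16, quantile normalizes and takes log2. Probes were kept if 2 or more of the 8 arrays gave a detection p below 0.01 (10660 of 25697, 10039 of them named). Of all probes, 23978 carried 1 gene symbol, 0 several and 1719 none. For 1953 genes with several kept probes, the brightest was used. Group means were fitted over all 8 arrays with lmFit and eBayes (4 residual degrees of freedom, prior 5.49), and p was adjusted over 7357 genes by the method of Benjamini and Hochberg. Bounds stand in for folds where 1 group lacks detection. The fit did not pair arrays by replicate number, as the methods name no such pairing. Deviations from the group means correlated between groups with r of -0.0836 to 0.0899, which cannot settle whether the arrays are paired. Per-array columns left unmapped numbered 0. No columns of the authors' comparisons were used.

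Named genes were the 15 largest rises and the 15 largest falls that passed without overlap, genes from the text and figures of the study, up to 4 members per list with the smallest p, and genes for which the effects with and without the drug differed, and further members of a list appear where its count is explained. The comparison, the lists and the genes were chosen with earlier results of these data known. Alternatives were other background corrections, scalings, filters, probe rules, a replicate block, only the 4 PLX4720 arrays, each array left out, weights per array and a t-test per gene. Figures were drawn with matplotlib 3.10.9 in Python 3.11.15.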

Additional observations from a re-analysis of the deposited data

Results flagged for a closer look

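For 6 genes detected under PLX4720 the effect of co-culture differed between PLX4720 and DMSO by a test of the difference itself. The difference of the log2 fold changes, PLX4720 minus DMSO, was 2.79 for Fos, -2.25 for Ulk4, -1.59 for Rasl11b, 1.28 for Aqp1, -2.48 for Dipk1a and 1.76 for H3c7, with adjusted p from 0.00258 to 0.0478 from limma. Ulk4 and H3c7 changed in opposite directions in the 2 treatments and passed in each. The call of H3c7 under PLX4720 was lost with no background subtraction (adjusted p = 0.0649 from limma) and with the authors' log2 values (0.0648). It was also lost with no filter (0.0689), only the 4 PLX4720 arrays (0.0563) and array weights (0.0672). In DMSO, Fos was detected on none of the 4 arrays and Rasl11b, by the probe used, on 1, so their effects there rest on signals near background. Groups of 2 arrays are too small to look for a deviating array within a group.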

How the results depend on the processing

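No result reversed its direction where it had been called. With no background subtraction 462 genes were higher and 428 lower, and with the authors' log2 values 459 and 428, of which 457 were shared with the 541 reported in each case, while genes at least 1.5-fold higher or lower numbered 334 and 306 as reported, 100 and 86 with no subtraction, 100 and 88 with the authors' values and 180 and 177 with normexp at an offset of 50. Median scaling gave 112 lower genes and a median over all genes of 0.101, and no filter 104 and 92 of 16593 genes. Only the 4 PLX4720 arrays gave 95 and 95, and array weights 99 and 98. Both arrays of a group received the same weight, 0.642 each in co-culture under PLX4720. The weights could therefore not set co-culture replicate 1 apart from replicate 2. A t-test per gene gave 0 and 0 (479 and 418 at an unadjusted p under 0.05). For such profiles, the methods name a t-test only to rank genes for gene set enrichment. With 2 arrays per group, a t-test per gene has little power, so its counts of 0 do not decide whether genes differ. The replicate block gave 274 and 257 genes, 473 of them shared, and raised the genes with a different effect under PLX4720 from 9 to 52. It ended the call of 2 of the 162 genes that the naming rule covers, Csf1 and Hsph1, and made that of 1, Gsta1. The differing genes numbered 95 with no subtraction, 122 with normexp, 110 with median scaling, 95 with the authors' values and 28 with detection on all 8 arrays. Leaving out each of the 8 arrays gave 12 to 284 higher, 3 to 341 lower, 323 to 499 at least 1.5-fold higher, 255 to 511 at least 1.5-fold lower and 2 to 37 differing genes. The median of the HIF targets turned from 0.37 to -0.31 with detection on all 8 arrays, and that of the NRF2 list from -0.15 to 0.016 with median scaling. Among single genes, median scaling also ended the calls of Ifit2, Gpnmb, Phgdh and Ccne1, and the mean of all probes of a gene those of Gstm1, Hspd1, Irgm1, Ccnd1 and Id2. Besides H3c7, no background subtraction ended the calls of Cxcl1 (adjusted p = 0.0872 from limma), Ccne1 (0.0839) and P4ha1 (0.138). The authors' log2 values ended the same calls (0.0871, 0.0841 and 0.138). The causes were not tested. Genes near background have the least certain fold changes, since signals there are compressed.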

Other observations

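Some genes that passed in the same direction with and without the drug belong to none of the lists, and they were chosen after their values had been seen. Mt4, a metallothionein that binds zinc, was detected in co-culture only in either treatment, at least 2.03-fold higher under PLX4720 and at least 2.11-fold in DMSO, and Slc30a1, which exports zinc, rose 2.18-fold under PLX4720 and was detected in co-culture only in DMSO, at least 2.07-fold higher. Mfap2, a protein of matrix microfibrils, was also detected in co-culture only, at least 1.98-fold higher under PLX4720 and at least 1.99-fold in DMSO. Kitl, the ligand of the receptor KIT, fell in both, from 7.91 and 7.92 to 6.82 and 6.76 under PLX4720 (log2 fold change -1.13, adjusted p = 0.00662) and by 0.93 on the log2 scale in DMSO (adjusted p = 0.0161). Dbp, an output gene of the circadian clock, was lower by 1.05 under PLX4720 and by 1.18 in DMSO on the log2 scale.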
